A study of Homo sapiens with 8 samples.

Results

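The genes described here carry out glycolysis or belong to the cellular response to low oxygen, and their transcript levels were measured in MEL1, an established human embryonic stem cell line. They are a fixed list of 35 gene symbols, and all 35 were found among the 27317 symbols of the count tables. The list divides into 21 glycolysis genes, which are glucose transporters, glycolytic enzymes and regulators of phosphofructokinase, and 14 hypoxia genes outside glycolysis. The hypoxia group holds 13 targets of the hypoxia-inducible factors (HIF) together with HIF1A, the oxygen-regulated HIF subunit itself. All 35 passed the filter on low counts, as did 17268 genes in all.

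The cells came from 4 groups of 2 RNA-sequencing libraries each. In the TCDD D2 group, cells had received 2 nM TCDD, a dioxin and ligand of AHR (the aryl hydrocarbon receptor), and had then spent 2 days in RPMI1640 with B27 lacking insulin and 5 µM of CHIR99021, an inhibitor of GSK3 that starts differentiation towards mesoderm. The DMSO D2 group differed only in receiving the solvent. The TCDD D1 and DMSO D1 groups were taken from E8 medium just before differentiation, after TCDD or solvent. The groups carry no engineered allele, all libraries are from 1 cell line, and the length of the exposure is not given in the sources used here. Whether replicates came from separate cultures is not given either, so the p-values capture no more than the variation between these libraries, which may be technical.

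Glycolysis converts glucose to pyruvate in the cytosol, and lactate dehydrogenase can then turn pyruvate into lactate. Pluripotent stem cells are known to rely strongly on it. In normal oxygen, prolyl hydroxylases of the EGLN family mark HIF subunits for destruction. When oxygen is scarce the subunits persist, pair with ARNT and raise the transcription of most glycolytic enzymes and of genes for angiogenesis, mitophagy, collagen hydroxylation and pH control. ARNT is also the partner of ligand-bound AHR, so the receptor of TCDD and HIF draw on a shared subunit.

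Libraries held 34873055 to 43770420 counts. CYP1A1, the classical AHR target, checked the treatment labels: its level was 89.4 ± 16.5 CPM (counts relative to library size) in TCDD D1 and 0.787 ± 0.0373 CPM in DMSO D1, and 2.19 ± 0.529 CPM in TCDD D2 and 0.378 ± 0.122 CPM in DMSO D2 (SD, n = 2 each). The summed CPM of 5 pluripotency markers was 3641 and 3685 in TCDD D2, 3328 and 3398 in DMSO D2, 3835 and 3731 in TCDD D1, and 3897 and 3770 in DMSO D1. With TCDD, 1 of the 5 passed at D2, SOX2, with 350 and 372 CPM in TCDD D2 against 233 and 246 CPM in DMSO D2, and 0 passed at D1 with edgeR or DESeq2 (1 lower at an unadjusted p under 0.05). Of all genes tested, 2.95% passed at D2 and 1.2% at D1 with edgeR. POU5F1 lay between 447 and 540 CPM in every library. Between D1 and D2, NANOG rose and DPPA4 fell under both treatments, while SOX2 rose with TCDD and fell with DMSO; POU5F1 and LIN28A passed as higher with TCDD and did not pass with DMSO. The summed CPM of 5 primitive streak markers (T, MIXL1, EOMES, EVX1 and MESP1) was 272 and 309 in TCDD D2, 574 and 609 in DMSO D2, and 2.00 to 2.47 at D1. The summed CPM of 5 fibroblast markers was 283 and 284 in TCDD D2 against 218 and 232 in DMSO D2, and 436 and 461 in TCDD D1 against 399.6 and 401 in DMSO D1, although the defining markers LUM and DCN had 0 and at most 2 counts in a library. Of these markers 3 were tested, and only COL1A1 was called higher with TCDD, by 0.54 at D2 and 0.20 at D1 on the log2 scale. It had 197 and 197 CPM in TCDD D2 against 141 and 129 CPM in DMSO D2. COL1A2 was not called at either time, with 85.2 and 84.4 CPM in TCDD D2 against 89.6 and 87.1 CPM in DMSO D2. At D1 it had 73.0 and 68.1 CPM with TCDD against 74.6 and 70.0 CPM with DMSO. PDGFRA was not called either. Mitochondrial ribosomal RNA took 0.484% and 0.630% of counts in TCDD D2, 0.705% and 0.948% in DMSO D2, 0.694% and 0.746% in TCDD D1, and 0.611% and 0.674% in DMSO D1. Whether the mix of cells had a part in the results that follow was not tested, and in bulk RNA fewer cells of a type and less RNA per cell cannot be told apart.

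The glycolysis genes took a larger share of the libraries at D2 than at D1. Their counts made up 2.05% and 2.02% of all counts in TCDD D2, 1.96% and 2.01% in DMSO D2, 1.79% and 1.68% in TCDD D1, and 1.55% and 1.56% in DMSO D1. The 4 groups therefore followed one order, in which TCDD D2 and DMSO D2 lay close together, TCDD D1 lay below both, and DMSO D1 was lowest. The hypoxia genes made up 0.143% and 0.137% in TCDD D2, 0.139% and 0.143% in DMSO D2, 0.112% and 0.109% in TCDD D1, and 0.0976% and 0.0990% in DMSO D1. Here the TCDD D2 and DMSO D2 libraries overlapped, while TCDD D1 lay above DMSO D1.

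Between genes, levels are compared as CPM per kilobase of exon (annotation of GENCODE 29), in DMSO D1 unless another group is named. GAPDH, the dehydrogenase whose gene is a common reference transcript, was highest at 1347 CPM per kilobase. LDHB, the lactate dehydrogenase subunit that favours pyruvate, followed at 970, the enolase ENO1 at 844, the pyruvate kinase PKM at 610 and the aldolase ALDOA at 445. The regulators PFKFB3 and PFKFB4, which make the activator of phosphofructokinase, were the lowest of the glycolysis genes at 5.48 and 5.95 per kilobase. Among hypoxia genes HIF1A had 50.6, the collagen prolyl hydroxylase P4HA1 53.3 and the mitophagy receptor BNIP3 43.0 CPM per kilobase. The pH regulator CA9 had 0.949 and ANKRD37, a small ankyrin-repeat protein, 0.823. The phosphoglycerate mutase PGAM1 stood at 40.3 per kilobase, well under its neighbours in the pathway. How reads that match several genes were treated is not given in the sources used here, and GAPDH, PGK1, PGAM1, ALDOA, LDHA, LDHB, ENO1, PKM and TPI1 have near-identical pseudogene copies, so their counts are uncertain on this point.

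**Figure D1:**
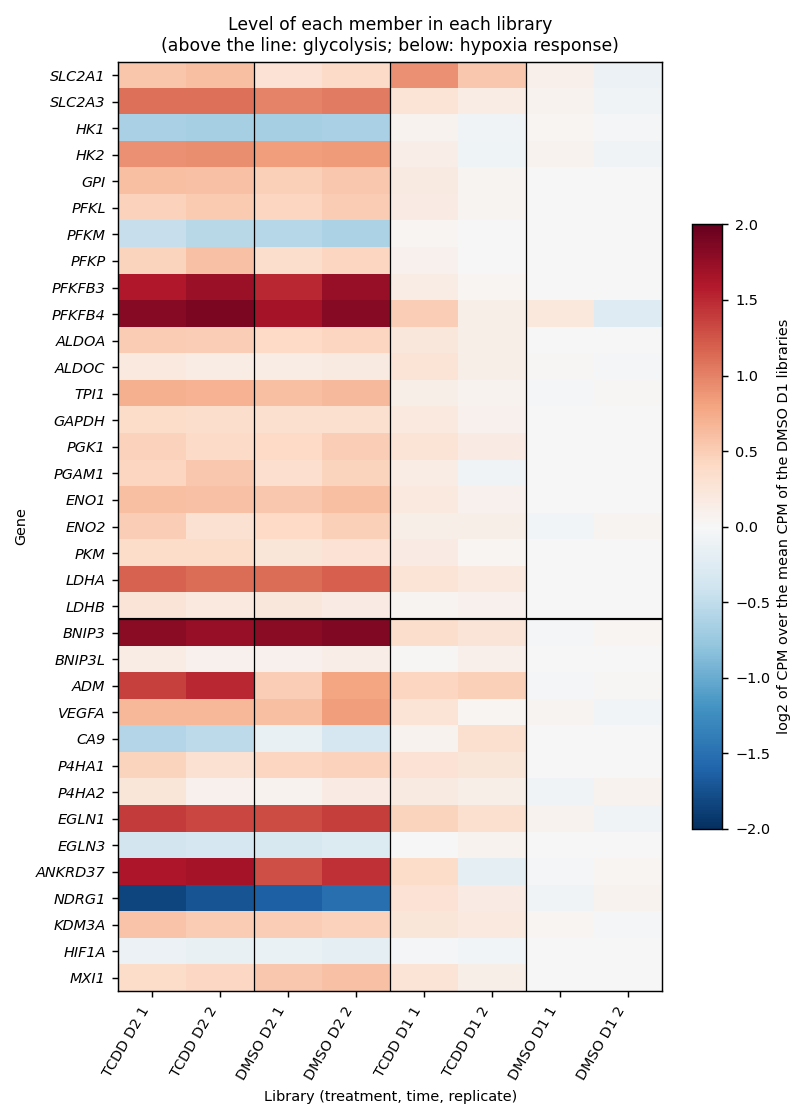
Level of each of the 35 genes (rows) in each of the 8 libraries (columns), as log2 of CPM over the mean CPM of the DMSO D1 libraries (colour scale from -2 to 2). Most rows are red in the TCDD D2 and DMSO D2 libraries, HK1, PFKM and NDRG1 are blue there, and SLC2A1 is reddest in TCDD D1 replicate 1.

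At D1, before differentiation, TCDD raised 8 of the 35 genes and lowered none. Of the glycolysis genes, 3 of 21 rose: the glucose transporter SLC2A1, the phosphoglycerate kinase PGK1 and the lactate dehydrogenase subunit LDHA. Of the hypoxia genes, 5 of 14 rose: BNIP3, the vasodilator peptide gene ADM, P4HA1, the oxygen sensor EGLN1 and the histone demethylase KDM3A. Over all genes tested, 1.2% passed the same test (edgeR quasi-likelihood F test with Benjamini-Hochberg adjustment, adjusted p at most 0.05). Of all genes tested, 0.764% were called higher and 0.434% lower. The members' shares were 14.3% of glycolysis and 35.7% of hypoxia genes, all upward. The list was chosen with earlier results of these data known, so here and below such shares describe it and are no independent test.

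SLC2A1 encodes GLUT1, the basal glucose transporter of most cells. It had 772 and 596 CPM in TCDD D1 against 440 and 378 CPM in DMSO D1. The groups did not overlap, although the TCDD libraries lay far apart. Its log2 fold change was 0.74 ± 0.09 (SE, 1.67-fold, edgeR adjusted p = 6.04e-05), the largest of the 35 at D1. SLC2A3 encodes GLUT3, a transporter of higher glucose affinity. It had 677 and 623 CPM in TCDD D1 against 587 and 533 CPM in DMSO D1, without overlap, and just missed the threshold with a log2 change of 0.22 ± 0.05 (SE, edgeR adjusted p = 0.0512). It passed with no composition scaling (adjusted p = 0.0245), no filter (0.000112), the replicate number as a block (0.0381) and DESeq2 (0.0169), and also without TCDD D1 replicate 2 (0.0129) or DMSO D1 replicate 1 (0.0414).

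PGK1, the first ATP-forming enzyme of the pathway, had 1354 and 1254 CPM in TCDD D1 against 1116 and 1118 CPM in DMSO D1. LDHA, the subunit that favours lactate, had 867 and 827 CPM in TCDD D1 against 713 and 726 CPM in DMSO D1. Both TCDD libraries exceeded both DMSO libraries for each gene, and the rises were small next to that of SLC2A1. They were 1.17-fold for PGK1 (log2 0.22 ± 0.05, SE, edgeR adjusted p = 0.0268) and 1.18-fold for LDHA (log2 0.23 ± 0.05, SE, edgeR adjusted p = 0.0107).

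The other 18 glycolysis genes did not pass at D1, yet their values were mostly on one side. The log2 fold change was positive for 20 of 21, the exception being the hexokinase HK1 at -0.00, and the median was 0.12 where that of all genes was 0.00. Both TCDD libraries lay above both DMSO libraries for 15 of the 21 and below for 0, against 18.9% and 18.6% of all genes. At an unadjusted p under 0.05, 13 were higher and 0 lower, against 4.89% and 5.52% of all genes. The genes that overlapped were HK1, HK2, PFKM, PFKP, PFKFB4 and PGAM1. Among those that did not, ALDOA had a log2 change of 0.17 ± 0.04 and its paralog ALDOC 0.20 ± 0.05 (SE, edgeR adjusted p = 0.0808 and 0.0748).

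Within TCDD D1, replicate 1 gave the higher value for 29 of the 35 genes (82.9%), against 52.4% of all genes. The median log2 ratio of replicate 1 over replicate 2 was 0.10 for the members and 0.01 for all genes. Without TCDD D1 replicate 1, the median log2 change of the glycolysis genes at D1 was 0.08. Without replicate 2 that median was 0.17, so it stayed above 0 with either TCDD library alone and differed in size between them.

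BNIP3, which tethers mitochondria to the autophagy machinery, had 157 and 147 CPM in TCDD D1 against 119 and 127 CPM in DMSO D1. Its log2 fold change was 0.31 ± 0.05 (SE, edgeR adjusted p = 0.00288). ADM, the precursor of adrenomedullin, had 35.4 and 36.5 CPM in TCDD D1 against 25.8 and 26.7 CPM in DMSO D1, a change of 0.45 ± 0.08 (SE, edgeR adjusted p = 0.00500). The groups did not overlap for either gene.

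EGLN1, the prolyl hydroxylase that is both the main brake on HIF and one of its targets, had 45.3 and 41.3 CPM in TCDD D1 against 34.8 and 31.4 CPM in DMSO D1 (log2 0.39 ± 0.06, SE, edgeR adjusted p = 0.00222). P4HA1, a catalytic subunit of collagen prolyl hydroxylase, had 190 and 184 CPM in TCDD D1 against 155 and 157 CPM in DMSO D1 (log2 0.26 ± 0.05, SE, edgeR adjusted p = 0.0103). KDM3A, which removes methyl groups from histone H3 lysine 9, had 112 and 108 CPM in TCDD D1 against 96.8 and 91.2 CPM in DMSO D1 (log2 0.22 ± 0.05, SE, edgeR adjusted p = 0.0241). None of these genes overlapped between the groups, as the plot of the raised genes by library shows.

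HIF1A itself was not among the raised genes. Its transcript had 212 and 208 CPM in TCDD D1 against 217 and 213 CPM in DMSO D1, a log2 change of -0.04 ± 0.04 (SE, edgeR adjusted p = 0.858), and it was the only one of the 14 hypoxia genes with both TCDD libraries below both DMSO libraries. Of the other 8 genes that did not pass, the log2 values lay between 0.04 for EGLN3 and 0.23 for NDRG1, a stress-response gene. The median over the 14 was 0.20, and 10 of them had both TCDD libraries above both DMSO libraries, against 18.9% of all genes. At an unadjusted p under 0.05, 9 were higher and 0 lower, against 4.89% and 5.52% of all genes.

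The call for SLC2A1 at D1 was kept whichever library was left out, and so in every other setting tried. The other 7 calls each ended when 1 library was left out. Leaving out DMSO D1 replicate 1 ended those of PGK1 (edgeR adjusted p = 0.233), LDHA (0.151), BNIP3 (0.0962), ADM (0.103), P4HA1 (0.138) and KDM3A (0.0663), and leaving out DMSO D1 replicate 2 ended that of EGLN1 (0.0569), as well as those of PGK1 (0.111), P4HA1 (0.0637) and KDM3A (0.207). The calls of PGK1 and KDM3A also ended without TCDD D1 replicate 1, DMSO D2 replicate 1 or DMSO D2 replicate 2 (adjusted p from 0.0573 to 0.128).

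**Figure D2:**
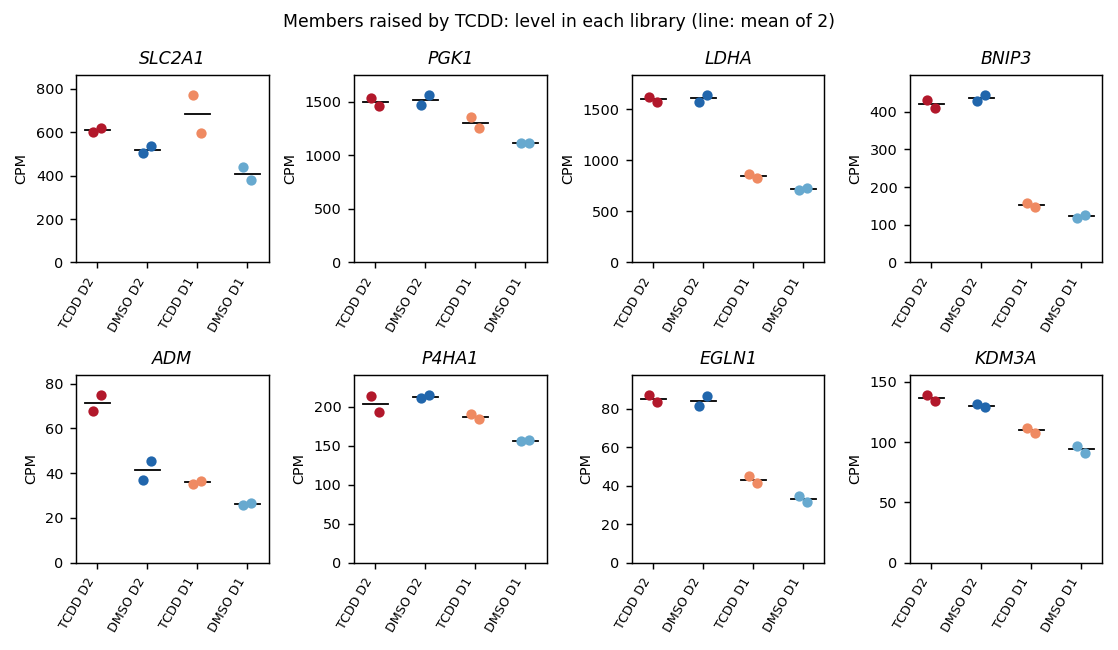
CPM (linear axes from 0) of the 8 genes called higher with TCDD at D1, each point a library and each line the mean of 2, for TCDD D2, DMSO D2, TCDD D1 and DMSO D1 from left to right. In all 8 panels both TCDD D1 points lie above both DMSO D1 points, and at D2 only SLC2A1, ADM and KDM3A separate by treatment.

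The promoters of several raised genes are shown because the HIF response element has the core ACGTG or GCGTG, and GCGTG is also the core of the AHR response element. These are the 250 bases before the RefSeq transcription start on the gene's strand, 5′ to 3′, in build GRCh38.p14, with matches to either core on either strand in capitals; adjoining or overlapping matches run together, and CACGTG holds an ACGTG match on each strand. LDHA (chr11:18394313-18394562, + strand) had 5 matches, all to ACGTG, BNIP3 (chr10:131981924-131982173, - strand) had 6, PGK1 (chrX:78103998-78104247, + strand) had 3, ADM (chr11:10304823-10305072, + strand) had 1 and SLC2A1 (chr1:42958869-42959118, - strand) had 0.
LDHA: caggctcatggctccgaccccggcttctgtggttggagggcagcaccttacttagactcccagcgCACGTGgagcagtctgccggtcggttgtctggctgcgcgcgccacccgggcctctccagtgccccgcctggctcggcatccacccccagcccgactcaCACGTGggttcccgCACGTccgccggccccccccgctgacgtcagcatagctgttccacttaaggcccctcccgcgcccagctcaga
BNIP3: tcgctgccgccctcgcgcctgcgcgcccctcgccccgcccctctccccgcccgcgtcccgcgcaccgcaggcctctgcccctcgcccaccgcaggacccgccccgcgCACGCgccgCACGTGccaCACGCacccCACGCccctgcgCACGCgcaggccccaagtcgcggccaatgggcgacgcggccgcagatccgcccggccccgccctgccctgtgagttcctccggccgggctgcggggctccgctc
PGK1: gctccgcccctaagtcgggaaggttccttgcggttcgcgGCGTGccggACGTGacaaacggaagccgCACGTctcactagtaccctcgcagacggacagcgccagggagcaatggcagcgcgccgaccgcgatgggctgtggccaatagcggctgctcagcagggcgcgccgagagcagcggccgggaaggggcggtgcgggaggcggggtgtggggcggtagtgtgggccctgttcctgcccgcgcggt
ADM: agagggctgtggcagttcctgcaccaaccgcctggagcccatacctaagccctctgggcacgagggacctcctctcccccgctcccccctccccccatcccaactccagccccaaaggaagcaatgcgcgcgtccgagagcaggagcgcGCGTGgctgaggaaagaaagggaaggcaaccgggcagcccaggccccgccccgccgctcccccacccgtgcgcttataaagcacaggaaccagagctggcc
SLC2A1: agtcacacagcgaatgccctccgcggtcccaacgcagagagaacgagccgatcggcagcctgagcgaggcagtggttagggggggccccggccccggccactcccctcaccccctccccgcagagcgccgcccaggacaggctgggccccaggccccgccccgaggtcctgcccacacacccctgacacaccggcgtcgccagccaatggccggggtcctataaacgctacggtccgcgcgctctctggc

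Across the list, 31 of the 35 genes matched a RefSeq promoter. ACGTG was found in 13 of the 31 windows (41.9%), against 18.7% of the 27305 promoters of the table and 22.4% of those of tested genes. GCGTG was found in 11 (35.5%), against 31.9% and 43.5%. Either core was present in 12 of 20 glycolysis promoters (60%) and in 8 of 11 hypoxia promoters (72.7%), against 43.1% of all promoters and 55.3% of those of tested genes. Of the 8 genes raised at D1, SLC2A1 alone lacked both cores in this window. Such matches are descriptions of the letters in the window, not binding sites.

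At D2, 1 of the 35 genes differed with TCDD. ADM had 67.9 and 74.9 CPM in TCDD D2 against 37.1 and 45.5 CPM in DMSO D2, a log2 fold change of 0.79 ± 0.07 (SE, 1.73-fold, edgeR adjusted p = 2.17e-06), and its call was kept in every setting and without any 1 library. The share of all genes that passed at D2 was 2.95%, with 1.41% higher and 1.54% lower. No glycolysis gene passed with edgeR or with DESeq2, and at an unadjusted p under 0.05 there were 3 higher and 0 lower, against 6.97% and 7.15% of all genes. The values still leaned upward, with 17 of 21 positive, a median log2 change of 0.08 and 10 of 21 with both TCDD libraries above both DMSO libraries, against 24.4% of all genes. Within DMSO D2, replicate 1 gave the higher value for 6 of the 35 genes (17.1%), against 49.4% of all genes, and without it the median of the glycolysis genes was 0.05.

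SLC2A1 had 599.95 and 619 CPM in TCDD D2 against 502 and 536 CPM in DMSO D2. The groups did not overlap, but its log2 change of 0.23 ± 0.09 (SE, edgeR adjusted p = 0.196) did not pass. It did pass without TCDD D1 replicate 1 (adjusted p = 0.0245) or TCDD D1 replicate 2 (0.0224), the pair of libraries whose spread enters the shared fit, and when only the D2 groups were fitted (0.00288). Apart from ADM and SLC2A1, the genes that had risen at D1 were near their DMSO level at D2, with log2 values of -0.02 for PGK1, -0.01 for LDHA, -0.06 for BNIP3, -0.07 for P4HA1, 0.02 for EGLN1 and 0.07 for KDM3A (edgeR adjusted p from 0.576 to 0.961).

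The hypoxia genes other than ADM spread around 0 at D2, with a median over the 14 of -0.02 that lay between -0.05 and 0.02 when 1 library was left out. Both TCDD libraries lay above both DMSO libraries for ADM, ANKRD37 and KDM3A, and below them for CA9, EGLN3, NDRG1 and MXI1, against 24.4% and 23.3% of all genes. MXI1, an antagonist of MYC, had 30.1 and 30.9 CPM in TCDD D2 against 33.9 and 35.1 CPM in DMSO D2 (log2 -0.18 ± 0.06, SE, edgeR adjusted p = 0.172). CA9 had only 1.02 and 1.07 CPM in TCDD D2 against 1.39 and 1.22 CPM in DMSO D2. At D2 the streak marker T averaged 48.6 CPM in TCDD D2 and 90.5 CPM in DMSO D2. Of the 5 streak markers, 4 were called lower with TCDD. MESP1 was not called, with 1.35 and 1.29 CPM in TCDD D2 against 1.01 and 1.07 CPM in DMSO D2. The libraries compared therefore also differed in markers of differentiation, and the part of this in the values was not tested.

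**Figure D3:**
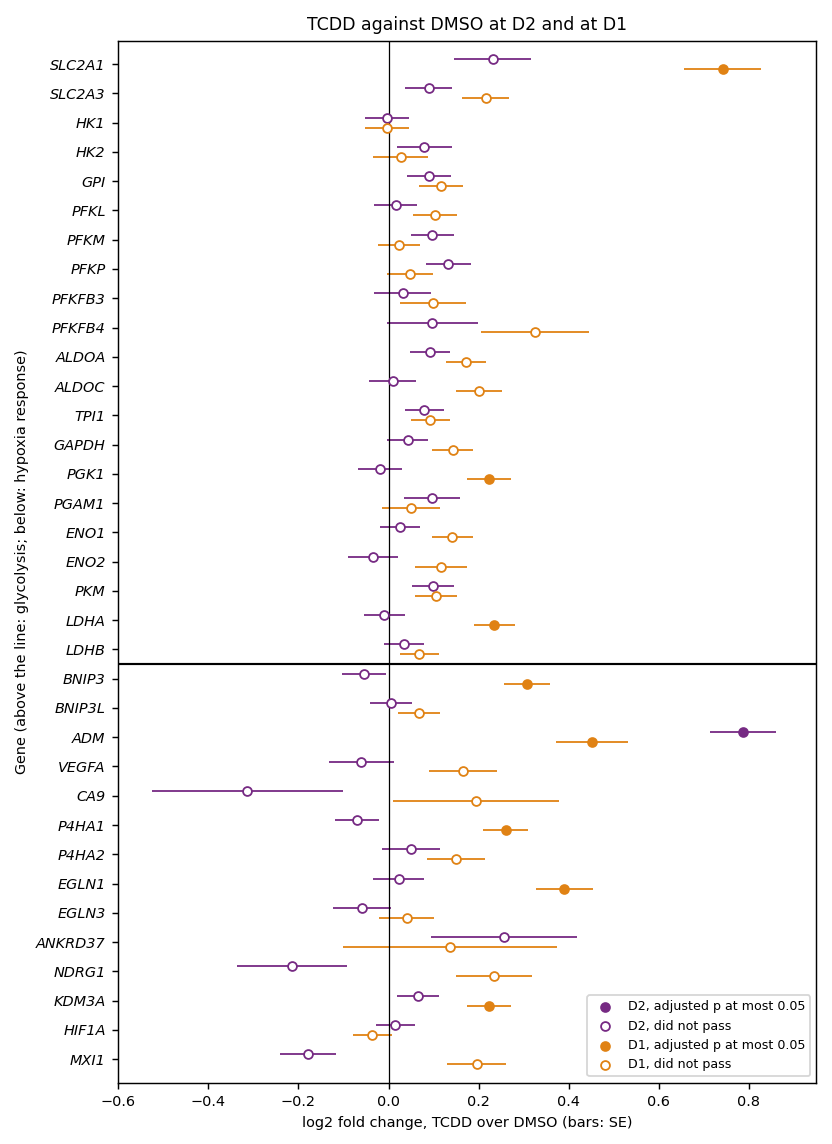
Log2 fold change of TCDD over DMSO for each of the 35 genes at D2 (purple) and D1 (orange), with SE bars, filled where the adjusted p was at most 0.05. Of the 8 filled orange points SLC2A1 lies farthest right at 0.74, and ADM at 0.79 is the only filled purple point.

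The TCDD effects at D2 and D1 were compared by testing their difference in the same fit. It passed for BNIP3, whose TCDD effect was lower at D2 by -0.36 ± 0.07 on the log2 scale (SE, edgeR adjusted p = 0.0198), and for P4HA1, lower by -0.33 ± 0.07 (SE, edgeR adjusted p = 0.0302). That is 2 of 14 hypoxia genes and 0 of 21 glycolysis genes, against 0.77% of all genes, 0.492% higher and 0.278% lower. At an unadjusted p under 0.05, 0 glycolysis genes were higher and 4 lower, and 1 hypoxia gene was higher and 7 lower. Of all genes, 5.46% were higher and 5.03% lower. DESeq2 called 1 glycolysis gene, LDHA, and 3 hypoxia genes, all lower, with EGLN1 (adjusted p = 0.0470) added to BNIP3 and P4HA1. Close to the threshold were EGLN1 at -0.37 (edgeR adjusted p = 0.0523), SLC2A1 at -0.51 (0.0578) and MXI1 at -0.37 (0.0705). Without TCDD D1 replicate 2 all of these passed (adjusted p from 0.000394 to 0.0213), as did PGK1 and LDHA, and SLC2A1 also passed without DMSO D1 replicate 1 (0.0482). For ADM the difference was 0.33 ± 0.11 (SE, edgeR adjusted p = 0.221), which did not pass, although it did with no filter on low counts (0.34, adjusted p = 0.0104). Both calls rested on single libraries: each was lost without DMSO D1 replicate 1, DMSO D2 replicate 1, DMSO D2 replicate 2 or TCDD D2 replicate 2, and that of P4HA1 also without DMSO D1 replicate 2 (adjusted p from 0.0860 to 0.194).

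Differentiation moved the list far more than TCDD did. With DMSO, 19 of 21 glycolysis genes rose between D1 and D2 and 2 fell, and 9 of 14 hypoxia genes rose and 3 fell. This has to be read against a background in which 63.2% of all genes passed, 32.5% higher and 30.7% lower. The median log2 change was 0.44 for the glycolysis genes and 0.46 for the hypoxia genes, where that of all genes was 0.01. Time, the change of medium and the GSK3 inhibitor came together and cannot be told apart.

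The strongest rises in the glycolysis group were in the regulators and at both ends of the pathway. PFKFB4 had 67.7 and 75.8 CPM in DMSO D2 against 24.8 and 17.9 CPM in DMSO D1 (log2 1.75 ± 0.11, SE, edgeR adjusted p = 2.70e-10). PFKFB3 had 85.2 and 99.6 CPM in DMSO D2 against 30.0 and 29.7 CPM in DMSO D1 (log2 1.63 ± 0.07, SE, edgeR adjusted p = 8.05e-13). Both make fructose 2,6-bisphosphate, and neither overlapped between times.

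LDHA had 1569 and 1643 CPM in DMSO D2 against 713 and 726 CPM in DMSO D1, a 2.23-fold rise (log2 1.16 ± 0.05, SE, edgeR adjusted p = 3.03e-13). SLC2A3 had 1110 and 1154 CPM in DMSO D2 against 587 and 533 CPM in DMSO D1 (log2 1.02 ± 0.05, SE, edgeR adjusted p = 1.28e-11). SLC2A1 rose less, with 502 and 536 CPM in DMSO D2 against 440 and 378 CPM in DMSO D1 (log2 0.34 ± 0.09, SE, edgeR adjusted p = 0.00192), and its call was lost in DESeq2 (adjusted p = 0.0630) and without DMSO D1 replicate 2 (0.0517). Apart from the hexokinase HK2, the other enzymes that rose did so by smaller amounts, from 0.16 for ALDOC to 0.63 for the triosephosphate isomerase TPI1. The call of ALDOC was lost with totals as the only scaling (adjusted p = 0.188) and without DMSO D1 replicate 2 (0.0748) or DMSO D2 replicate 2 (0.0806).

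The genes that fell were both isoforms with a paralog that rose. HK1, the widely expressed hexokinase, had 339 and 341 CPM in DMSO D2 against 550.5 and 523 CPM in DMSO D1 (log2 -0.66 ± 0.05, SE, edgeR adjusted p = 1.97e-09). HK2, its inducible paralog, had 313 and 315 CPM in DMSO D2 against 184 and 166 CPM in DMSO D1 (log2 0.84 ± 0.06, SE, edgeR adjusted p = 1.40e-09). PFKM, the muscle-type phosphofructokinase, had 96.7 and 93.1 CPM in DMSO D2 against 143 and 145 CPM in DMSO D1 (log2 -0.60 ± 0.05, SE, edgeR adjusted p = 4.39e-09), while the liver type PFKL and the platelet type PFKP rose by 0.47 and 0.38 on the log2 scale.

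Per kilobase, the make-up of several paralog pairs differed more between the times than between the treatments. HK2 made up 43.1% and 43.8% of HK1 and HK2 together in TCDD D2, 42.1% and 42.1% in DMSO D2, 21.2% and 20.2% in TCDD D1, and 20.8% and 19.95% in DMSO D1. LDHA made up 32.0% and 32.2% of LDHA and LDHB in TCDD D2, 31.9% and 33.7% in DMSO D2, 22.6% and 21.3% in TCDD D1, and 19.7% and 20.3% in DMSO D1. Of the glucose transporters, SLC2A1 made up 32.8% and 33.6% of the pair in TCDD D2, 30.8% and 31.4% in DMSO D2, 52.8% and 48.4% in TCDD D1, and 42.5% and 41.1% in DMSO D1. This pair therefore ran the other way in time, towards SLC2A3, and was the one in which TCDD and DMSO libraries separated most. SLC2A3 has a near-identical neighbour, SLC2A14, which was counted at 1.01 and 0.950 CPM per kilobase in DMSO D1.

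**Figure D4:**
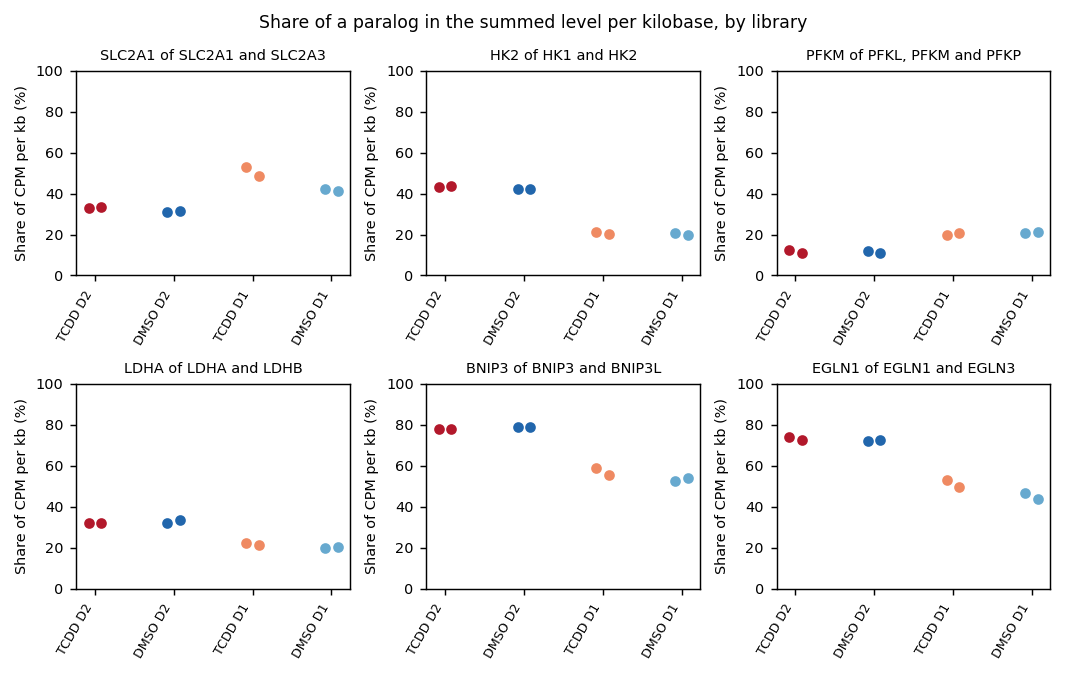
Share (%) of 1 paralog in the summed CPM per kilobase of its family, each point a library, for TCDD D2, DMSO D2, TCDD D1 and DMSO D1 from left to right. HK2, LDHA, BNIP3 and EGLN1 take larger shares at D2 than at D1, PFKM and SLC2A1 smaller ones, and the largest gap between treatments is that of SLC2A1 at D1.

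Among the hypoxia genes, BNIP3 rose most with differentiation. It had 427 and 445 CPM in DMSO D2 against 119 and 127 CPM in DMSO D1, a 3.55-fold rise (log2 1.83 ± 0.05, SE, edgeR adjusted p = 2.46e-15). Its paralog BNIP3L, also a mitophagy receptor, had 156 and 161 CPM in DMSO D2 against 146 and 147 CPM in DMSO D1, a change of 0.11 that passed the test but not with DESeq2 or in 4 other settings of scaling, filter or block, and not without DMSO D1 replicate 1 or 2, DMSO D2 replicate 1 or 2, or TCDD D2 replicate 2 (adjusted p from 0.0544 to 0.234). Per kilobase, BNIP3 made up 78.2% and 78.2% of the pair in TCDD D2, 78.8% and 79.0% in DMSO D2, 58.9% and 55.8% in TCDD D1, and 52.6% and 53.9% in DMSO D1.

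The oxygen sensors divided. EGLN1 had 81.6 and 86.6 CPM in DMSO D2 against 34.8 and 31.4 CPM in DMSO D1 (log2 1.35 ± 0.06, SE, edgeR adjusted p = 2.09e-12), while EGLN3 had 21.8 and 22.7 CPM in DMSO D2 against 27.1 and 27.5 CPM in DMSO D1 and fell by 0.29 on the log2 scale. ANKRD37 (1.38), VEGFA, the angiogenic growth factor (0.72), ADM (0.66), MXI1 (0.56), KDM3A (0.47) and P4HA1 (0.45) rose, each with its log2 change in brackets. NDRG1 fell most, with 4.40 and 4.79 CPM in DMSO D2 against 12.9 and 14.3 CPM in DMSO D1 (log2 -1.56 ± 0.10, SE, edgeR adjusted p = 3.02e-10). HIF1A fell by 0.15, a call lost without DMSO D2 replicate 2 (adjusted p = 0.0867). CA9 and P4HA2 did not pass, although P4HA2 did without DMSO D1 replicate 2 (0.0452).

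With TCDD, 17 of 21 glycolysis genes rose between D1 and D2 and 2 fell, again HK1 and PFKM, and 8 of 14 hypoxia genes rose and 3 fell. The background was 65.3% of all genes, 33.1% higher and 32.2% lower. The median log2 change was 0.38 for the glycolysis genes and 0.15 for the hypoxia genes, where that of all genes was -0.00. The 2 differentiation comparisons share no library with each other, but each shares its D1 or D2 libraries with the TCDD comparisons above. With totals as the only scaling, the median of all genes moved to -0.11 with TCDD, that of the glycolysis genes to 0.27 and that of the hypoxia genes to 0.04. The glycolysis split became 15 higher and 4 lower, the hypoxia split 6 and 4 and the split of all genes 4183 higher and 6996 lower, where it was 5709 and 5560; with DMSO the split of all genes became 4381 and 6419, where it was 5617 and 5296.

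SLC2A1 stood out from the other glycolysis genes in this comparison. It had 599.95 and 619 CPM in TCDD D2 against 772 and 596 CPM in TCDD D1, so the groups overlapped, and its log2 change of -0.17 ± 0.09 (SE, edgeR adjusted p = 0.0933) did not pass. ALDOC did not pass either, at -0.03. With totals as the only scaling, SLC2A1 passed as lower at -0.28 (edgeR adjusted p = 0.00552) and ALDOC at -0.14 (0.0203). SLC2A1 also passed as lower with no filter on low counts (-0.17, edgeR adjusted p = 0.000343). LDHA rose by 0.91 ± 0.05, PGK1 by 0.20 ± 0.05 and SLC2A3 by 0.89 ± 0.05 on the log2 scale (SE, edgeR adjusted p = 7.58e-12, 0.00148 and 7.95e-11), and the rises of PGK1 and LDHB were lost with totals as the only scaling. Without TCDD D1 replicate 2, SLC2A1 passed as lower by -0.34 (adjusted p = 0.000271).

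Of the hypoxia genes, BNIP3 had 429.95 and 409.6 CPM in TCDD D2 against 157 and 147 CPM in TCDD D1 (log2 1.47 ± 0.05, SE, edgeR adjusted p = 4.53e-14). ADM had 67.9 and 74.9 CPM in TCDD D2 against 35.4 and 36.5 CPM in TCDD D1 (log2 0.99 ± 0.07, SE, edgeR adjusted p = 1.99e-09). ADM thus reached its highest level of the 4 groups in TCDD D2, whereas BNIP3, EGLN1 and LDHA were about as high in DMSO D2. NDRG1 fell by 2.01, CA9 by 0.75 and EGLN3 by 0.39 on the log2 scale. The rises of MXI1 (0.19) and P4HA1 (0.12) were each lost with totals as the only scaling (edgeR adjusted p = 0.272 and 0.896). P4HA1 also did not pass with DESeq2 (adjusted p = 0.0648) or with the TCDD groups alone (edgeR adjusted p = 0.117). Both rises were lost too when 1 library was left out. That of MXI1 ended without TCDD D2 replicate 2 (adjusted p = 0.0917) or TCDD D1 replicate 2 (0.149), and that of P4HA1 whichever library was left out except TCDD D2 replicate 2 or TCDD D1 replicate 1 (0.0502 to 0.495). BNIP3L, P4HA2 and HIF1A did not pass, although HIF1A passed as lower with totals as the only scaling (log2 -0.21, edgeR adjusted p = 0.000286).

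**Figure D5:**
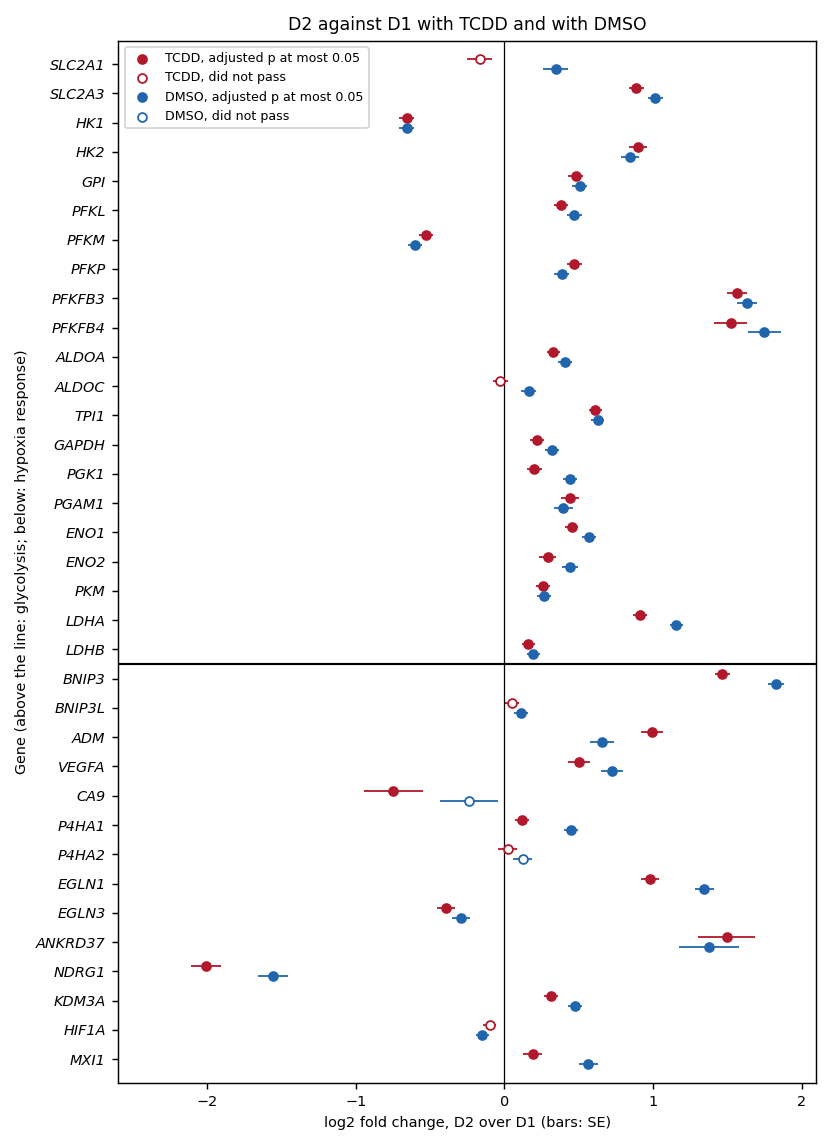
Log2 fold change of D2 over D1 for each of the 35 genes with TCDD (red) and with DMSO (blue), with SE bars, filled where the adjusted p was at most 0.05. PFKFB3, PFKFB4, BNIP3 and ANKRD37 lie farthest right in both colours, NDRG1 lies farthest left, and SLC2A1 lies left of 0 with TCDD and right of it with DMSO.

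Other genes of glycolysis and sugar entry, from a list of 31 of which 27 were tested, contributed 2 calls at D1 with edgeR, both upward and both lactate transporters, and 1 with DESeq2. SLC16A1 had 878 and 941 CPM in TCDD D1 against 709.5 and 726 CPM in DMSO D1 (log2 0.34 ± 0.05, SE, edgeR adjusted p = 0.000266). SLC16A3, known as a HIF target, had 68.3 and 54.3 CPM in TCDD D1 against 46.8 and 45.2 CPM in DMSO D1 (log2 0.42 ± 0.08, SE, edgeR adjusted p = 0.0134). At D2, 1 of 27 passed, SLC16A7, higher by 0.56. Of all genes tested, edgeR called 0.764% higher at D1 and 1.41% at D2. Between D1 and D2, 8 rose and 8 fell with DMSO, among them SLC16A3 at 1.80, and 7 rose and 11 fell with TCDD. These are 29.6% and 29.6% of the list with DMSO, against 32.5% and 30.7% of all genes, and 25.9% and 40.7% with TCDD, against 33.1% and 32.2%. Of 7 genes of the pentose phosphate pathway, which branches off glycolysis, edgeR and DESeq2 called 0 with TCDD at either time. EdgeR called 1.2% of all genes at D1 and 2.95% at D2, so 0 of 7 does not set this list apart. At an unadjusted p under 0.05, 0 differed at D1 and 1 was higher at D2. Of all genes, 4.89% were higher and 5.52% lower at D1, and 6.97% and 7.15% at D2. With DMSO, 5 rose with differentiation (71.4%) and 1 fell (14.3%), the transketolase TKT by 0.78. The shares of all genes were 32.5% and 30.7%.

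Of 36 further HIF targets, 35 were tested, and 4 rose and 2 fell with TCDD at D1 with edgeR, where DESeq2 called 3 higher and 1 lower. The edgeR calls were 11.4% and 5.71% of the list, against 0.764% and 0.434% of all genes. The rises were those of DDIT4, an inhibitor of mTOR signalling (log2 0.37), the glycoprotein hormone STC1 (0.68), the mitochondrial protein FAM162A (0.27) and PDK1 (0.27). PDK1 is a kinase that inhibits pyruvate dehydrogenase. The transferrin receptor TFRC was among those that fell, by 0.30 on the log2 scale; PDK1 and TFRC are named here after their values were seen. At D2 DDIT4 rose by 0.37 and WSB1 fell by 0.18, each 2.86% of the list, against 1.41% higher and 1.54% lower of all genes. With differentiation 26 rose and 4 fell in DMSO and 27 rose and 5 fell in TCDD, led by BHLHE40 (3.17 in DMSO, 3.13 in TCDD) and PDK1 (3.02 in DMSO, 2.65 in TCDD). These are 74.3% and 11.4% of the list with DMSO, against 32.5% and 30.7% of all genes. With TCDD they are 77.1% and 14.3%, against 33.1% and 32.2%. This list too was chosen with earlier results of these data known. The difference of the TCDD effects passed as higher for 1 of the 35 tested (2.86%) and as lower for 2 (5.71%). The shares of all genes were 0.492% and 0.278%. PDK1 was among the lower, at -0.37 ± 0.08 (SE, edgeR adjusted p = 0.0294).

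Of 14 regulators of the HIF pathway, edgeR called 0 with TCDD at D1, where 1 was higher and 2 lower at an unadjusted p under 0.05 and DESeq2 called 0. Of all genes, edgeR called 1.2% at D1, so 0 of 14 does not set the regulators apart. At an unadjusted p under 0.05, 4.89% of all genes were higher and 5.52% lower. ARNT, the shared partner, had 71.8 and 68.8 CPM in TCDD D1 against 71.8 and 69.2 CPM in DMSO D1 (log2 -0.00 ± 0.05, SE, edgeR adjusted p = 0.993). EPAS1, which encodes another oxygen-regulated HIF subunit, had 3.97 and 3.30 CPM in TCDD D1 against 6.54 and 4.63 CPM in DMSO D1 (log2 -0.61 ± 0.16, SE, edgeR adjusted p = 0.0948). At D2, CITED2, which competes with HIF for its coactivators, had 75.3 and 79.3 CPM in TCDD D2 against 64.0 and 64.5 CPM in DMSO D2 (log2 0.27 ± 0.05, SE, edgeR adjusted p = 0.00305), the only call among the 14. Of all genes, 2.95% were called at D2.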

How the data were processed

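RNA of 8 MEL1 libraries was sequenced. The authors deposited a table of raw read counts per gene symbol for each library; the values are whole numbers and carry no normalisation. Per the submitters' processing notes, cutadapt 1.9.1 trimmed the reads, STAR aligned them to hg19 and featureCounts 1.5.1 counted them. The sources used here do not give the annotation, the strand setting or how reads matching several genes were counted.

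Groups came from the sample titles. In R 4.3.3 with edgeR 4.0.16, low genes were removed with filterByExpr on the 4 groups, TMM gave scaling factors of 0.958 to 1.04, and a single quasi-likelihood model of all 8 libraries had 1 mean for each group (common biological coefficient of variation 3.86%). Its F tests, in 5 comparisons, were two-sided; p-values were adjusted by Benjamini-Hochberg over 17268 genes, with a threshold of 0.05. SE was derived from the F statistic. CPM are counts relative to the scaled totals, and CPM per kilobase used merged exon lengths of GENCODE 29 (GRCh38). Older symbols were matched through RefSeq synonyms. The scripts were tested on simulated data. Replicates differed by more than sampling noise (chi-square per gene 3.21 to 6.59), so none were merged. DESeq2 1.42.0, other scalings, filters, fits and left-out libraries were alternatives.

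The members and gene lists were chosen with earlier results of these data known. At D1, PDK1 and TFRC of the further HIF targets were named outside the rule given next, after their values were seen. All 35 members are named or counted in every comparison, with at most 4 called genes of smallest p from each other list, while lists of HIF and AHR regulators and of lineage markers may be named in full. The result of 1 gene that this rule names is not reported here. Promoter sequences are from RefSeq (GRCh38.p14).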

Additional observations from a re-analysis of the deposited data

Results flagged for a closer look

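The TCDD effect at D2 differed from that at D1, by the test of the difference itself, for 2 of the 35 genes. For BNIP3, the log2 TCDD effect was -0.06 at D2 and 0.31 at D1, a difference of -0.36 ± 0.07 (SE, edgeR adjusted p = 0.0198), with levels of 429.95 and 409.6 CPM in TCDD D2, 427 and 445 CPM in DMSO D2, 157 and 147 CPM in TCDD D1, and 119 and 127 CPM in DMSO D1. For P4HA1, it was -0.07 at D2 and 0.26 at D1, a difference of -0.33 ± 0.07 (SE, edgeR adjusted p = 0.0302), with 213 and 192 CPM in TCDD D2, 211 and 215 CPM in DMSO D2, 190 and 184 CPM in TCDD D1, and 155 and 157 CPM in DMSO D1. In both genes the TCDD and DMSO libraries overlapped at D2 and did not at D1. Both calls rested on single libraries, as given above, and neither was kept whichever library was left out. The difference then lay between -0.41 and -0.31 for BNIP3 and between -0.40 and -0.26 for P4HA1.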

How the results depend on the processing

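With 2 libraries a group, small changes are at the limit of what the fit can call. Counts of calls moved with the settings in these cases, and the cause was not tested. For all genes, no filter gave 505 calls at D1, 908 at D2 and 468 for the difference of TCDD effects, and the D1 groups alone gave 114. Glycolysis calls at D1 were 6 with no composition scaling, 5 with DESeq2, 9 with no filter and 1 with the D1 groups alone; at D2 they were 1 with no filter and 1 with the D2 groups alone. For the difference, glycolysis calls were 2 with no composition scaling, 1 with DESeq2 and 3 with no filter. Hypoxia calls for it were 4 with no composition scaling and 5 with no filter. Beside these, the main fit called 207 of all genes at D1, 509 at D2 and 133 for the difference. No composition scaling gave 226 all-gene calls at D1 and 138 for the difference, and DESeq2 gave 169 and 139. The D2 groups alone gave 701.

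Leaving out 1 library at a time gave 80 to 265 calls over all genes at D1, 198 to 648 at D2, 29 to 275 for the difference, 9139 to 11248 for D2 against D1 with DMSO and 9746 to 11289 with TCDD. Glycolysis calls ranged over 2 to 8 at D1, 0 to 1 at D2, 0 to 3 for the difference, 19 to 21 with DMSO and 19 to 20 with TCDD; hypoxia calls ranged over 1 to 5, stayed at 1, and ranged over 0 to 4, 10 to 12 and 9 to 11 in the same comparisons. The lowest D1 count of all genes (80) and of hypoxia genes (1) came without DMSO D1 replicate 1, and hypoxia calls were 2 without DMSO D1 replicate 2. The highest D1 count of glycolysis genes (8) came without TCDD D1 replicate 2. At D2, all-gene calls were 198 and 246 without DMSO D2 replicates 1 and 2 and 221 without TCDD D2 replicate 2. No called value of a member changed sign under any setting tried.

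The replicate numbers are shared between groups, but no source says what they mark. Same-numbered libraries deviated together with a correlation of 0.32 between TCDD D1 and DMSO D1, 0.21 between TCDD D2 and DMSO D2, 0.05 between DMSO D2 and DMSO D1 and -0.30 between TCDD D2 and TCDD D1, over 10295 genes. With the replicate number as a block, 225 genes were called at D1, 515 at D2 and 159 for the difference, glycolysis calls were 4 at D1 (SLC2A3 added, adjusted p = 0.0381) and 1 for the difference (SLC2A1, adjusted p = 0.0300), and hypoxia calls for the difference were 3, with EGLN1 added (adjusted p = 0.0430). BNIP3L lost its call for D2 against D1 with DMSO (adjusted p = 0.0502), and the block changed the call of no other member.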
